A study of Oryza sativa Japonica Group with 18 samples.

Results

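The comparison sets rice plants carrying an RNA interference construct against OsERF096 (RNAi) beside wild type (WT), both under normal growth. It rests on 6 of the 18 RNA sequencing libraries of the series, chosen by their labels, 3 from RNAi control leaves and 3 from WT control leaves. Seedlings were sampled at the 3-leaf stage under a 14 h day and 10 h night, and the control groups had no cold treatment. The other 12 libraries come from control leaves of plants overexpressing OsERF096 (OX) and from leaves of RNAi, OX and WT plants after 12 h at 4 °C (cold). They entered the fit and are used here only where they bear on the comparison of RNAi with WT. The labels give neither the promoter of the construct, nor how many independent lines were used, nor whether the libraries within a group stem from different plants. The p-values thus reflect library-to-library spread alone, and that spread may be technical. The row of OsERF096 was not analysed here, so the level of the targeted transcript is not given for any library.

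OsERF096 belongs to the ethylene response factor family, plant transcription factors that share the AP2/ERF DNA-binding domain with the DREB proteins. Abscisic acid (ABA) is the hormone through which plants adjust to drought, salt and cold. Without it, clade A protein phosphatases (PP2C) hold SnRK2 kinases, named SAPK in rice, inactive. When ABA binds its receptors these block the phosphatases, and the freed kinases act on bZIP transcription factors, whose targets include dehydrin genes and the PP2C genes themselves.

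Expression was deposited as FPKM, which corrects fragment counts for gene length and for the mapped total, and compared as log2(FPKM + 1) for 23175 of 38610 genes, those with at least 1 FPKM in at least 3 libraries. A gene is called where limma gave a Benjamini-Hochberg adjusted p under 0.05 over all genes tested. Differences are RNAi minus WT on the log2(FPKM + 1) scale, which understates the change of low genes, and are given with their standard error. Absolute read depth is unknown. Judged by steps among low values, the 3 RNAi libraries were at 0.979 to 0.999 and WT replicates 2 and 3 at 1.13 and 1.1 times the depth of WT replicate 1, a rough estimate with only 30 to 58 values behind each. Between 19825 and 20703 genes reached 1 FPKM in RNAi control libraries, and between 20379 and 20880 in WT control libraries.

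WT control replicate 2 stood apart from the other libraries. Its mean correlation with the other WT control libraries was 0.92. CESA4, CESA7 and CESA9, cellulose synthase genes of secondary cell walls, averaged 5.32 to 5.63 as log2(FPKM + 1) in RNAi control libraries, against 2.15 in WT replicate 2 and 5.95 and 6.32 in WT replicates 1 and 3. Results are therefore given with and without it where it changes them. The 5 leaf mesophyll markers averaged 9.94 to 10.4 in RNAi and 9.87 to 10.2 in WT libraries, and the averages of the 2 phloem markers also overlapped. Taken singly, the phloem marker SUT1 had no overlap, at 54, 48 and 46.3 FPKM in RNAi and 66.4, 75.6 and 59.6 FPKM in WT. The mesophyll marker RCA had none either, but was higher in RNAi (5640, 6980 and 7030 FPKM, against 4960, 2840 and 5450 FPKM in WT). The 4 root uptake markers averaged 1.97 to 2.31 in RNAi and 2.38 to 2.95 in WT libraries, without overlap, with the defining iron transporter YSL15 at 0 in all 6. Singly, NIP2-1 did overlap, at 2.39, 2.18 and 1.54 FPKM in RNAi and 1.4, 14.6 and 5.33 FPKM in WT, while NIP2-2 and NAS2 did not. A lack of overlap is common, as it was found in 27.7% of all genes tested. The seed markers WAXY and LEA3 were near 0, averaging 0 to 0.02 in RNAi and 0.05 to 0.29 in WT libraries. None of the markers tested was called, while YSL15, WAXY and LEA3 were too low to be tested. RAB16A, planned as a further seed marker, is another name of the dehydrin gene RAB21, which is not in these averages and was called lower in RNAi. The part of these cell types in the results was not tested. In bulk leaf, fewer cells of a type and less RNA per cell cannot be told apart.

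RNAi control leaves differed from WT control leaves in 604 of the 23175 genes tested (2.61%), 201 higher (0.867%) and 403 lower (1.74%). Without WT control replicate 2 the count was 201, with 64 higher and 137 lower, and 172 of these were among the 604. With the 6 control libraries fitted alone it was 50, of which 48 were among the 604. Leaving out RNAi control replicate 1 gave 1001 calls, leaving out replicate 2 gave 118 and leaving out replicate 3 gave 160, while 365 were called without WT cold replicate 2, which enters the shared spread. The median gene was lower by -0.06. Of the called genes 33.3% were higher as deposited, while quantile normalization put this share at 50.7% and median-ratio scaling at 53.4%. WT control replicate 2 was the highest of the 6 libraries in 271 of the 403 genes called lower (67.2%, against 30.3% of all genes tested) and the lowest in 143 of the 201 called higher (71.1%, against 31.9%). In called genes this extreme library was always a WT one, while over all genes it could be any of the 6. The 2 shares thus have unlike bases. WT control replicate 1 was highest in 25.6% of the genes called lower (22.5% of all) and lowest in 20.4% of those called higher (8.35% of all). For WT control replicate 3 these shares were 7.2% (8.72%) and 8.46% (7%). The groups did not overlap in 27.7% of all genes tested, with RNAi higher in 11% and lower in 16.7%.

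Of 276 tested genes with a checked name, 12 were called lower in RNAi control leaves and 1 was called higher, namely HSP24.1. Over all genes tested, 1.74% were called lower and 0.867% higher. The named genes were written by hand, and their median difference was -0.13, against -0.06 over all genes. The lower ones were 4 phosphatase genes of ABA signalling, the dehydrin gene RAB21, the proline synthesis gene P5CS2, the transcription factor genes NAC5 and DREB2B, the metal transporter gene YSL2, the cytokinin oxidase gene CKX4, the invertase gene CIN1 and the superoxide dismutase gene SODCC2. Without WT control replicate 2, calls remained for 5 of the 13, YSL2, PP2C68, PP2C50, P5CS2 and HSP24.1. The same 5 remained when RNAi control replicate 2 or 3 was left out. None of the 13 was called when the 6 libraries were fitted alone, where their adjusted p ran from 0.051 for YSL2 to 0.21 for NAC5.

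**Figure D1:**
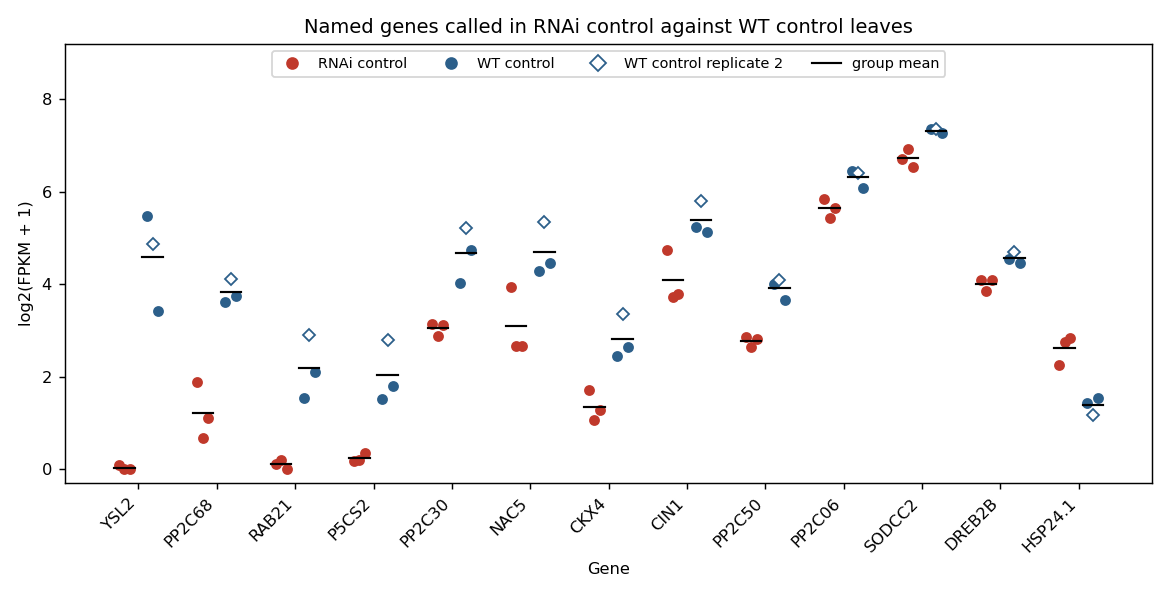
Level of each named gene called in RNAi control against WT control leaves, on the log2(FPKM + 1) axis, for the 3 RNAi libraries (left) and 3 WT libraries (right) of each gene, ordered by the difference. Lines are group means and open diamonds are WT control replicate 2. The 13 genes were chosen by this same contrast, so the lack of overlap between their groups is no separate result. The groups did not overlap in 27.7% of all genes tested. Of the 13 genes 12 are lower in RNAi. The diamond is the highest point for PP2C68, RAB21, P5CS2, PP2C30, NAC5, CKX4, CIN1, PP2C50, SODCC2 and DREB2B.

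The phosphatase genes were lower in RNAi control leaves as far as they were called. Of 8 tested clade A genes 4 were called lower, none was called higher, and the list's median difference was -0.99, or -0.88 without WT control replicate 2, against -0.06 over all genes. Of all genes tested, 1.74% were called lower and 0.867% higher. PP2C68 was at 2.67, 0.599 and 1.15 FPKM in RNAi control leaves, against 11.2, 16.3 and 12.5 FPKM in WT control leaves. All RNAi libraries lay far below all WT libraries, and the difference was -2.61 ± 0.41 (adjusted p = 0.00374). PP2C50 was at 6.29, 5.22 and 6.09 FPKM in RNAi, against 14.99, 16.1 and 11.7 FPKM in WT, a difference of -1.14 ± 0.18 (adjusted p = 0.00374).

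For PP2C30 the level was 7.84, 6.42 and 7.73 FPKM in RNAi, against 15.4, 36.4 and 25.8 FPKM in WT. Its RNAi libraries were alike while its WT libraries spread more than 2-fold, and the difference of -1.62 ± 0.36 (adjusted p = 0.0326) missed the threshold without WT control replicate 2 or 3 or RNAi control replicate 2 or 3 (adjusted p up to 0.16 over all alternatives). PP2C06, the most abundant of the 4, was at 56.5, 42.3 and 49.0 FPKM in RNAi, against 86.0, 83.8 and 67.2 FPKM in WT. That difference was smaller, -0.67 ± 0.15 (adjusted p = 0.0279), and was no longer called without WT control replicate 1 or 2 or RNAi control replicate 2 or 3 (adjusted p up to 0.181 over all alternatives).

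PP2C09, PP2C08 and PP2C49 were not called. Their groups did not overlap, with RNAi lower, which was also so in 16.7% of all genes tested. PP2C09 averaged 35.0 ± 5.02 FPKM in RNAi and 63.0 ± 4.98 FPKM in WT (SD, n = 3 each), a difference of -0.83 ± 0.29 (adjusted p = 0.109). PP2C08 differed by -1.36 ± 0.50 and PP2C49 by -0.61 ± 0.34. The remaining member, PP2C53, was at 30.6 ± 2.48 FPKM in RNAi and 31.2 ± 1.39 FPKM in WT (SD, n = 3 each), and its difference of -0.03 turned positive under median-ratio scaling, with library weights and without RNAi control replicate 1.

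Averaged over the 8 genes, the phosphatases had a mean log2(FPKM + 1) of 3.64, 3.23 and 3.37 in the RNAi control libraries, against 4.34, 4.81 and 4.41 in the WT control libraries. The highest WT value belongs to replicate 2. In OX control leaves the same mean was 4.31, 3.36 and 3.89, which overlaps the RNAi libraries.

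The named receptor, kinase and bZIP genes of ABA signalling gave no call. RCAR5, the only receptor gene with a checked name among those tested, was at 43.5, 30.3 and 33.2 FPKM in RNAi, against 38.1, 50.3 and 39.9 FPKM in WT, a difference of -0.26 ± 0.19. The groups overlapped. None of the 10 SAPK kinase genes was called, with a median of -0.18. SAPK10 came closest, at 2.1, 3.18 and 2.21 FPKM in RNAi and 4.48, 6.42 and 5.52 FPKM in WT, a difference of -0.89 ± 0.29 (adjusted p = 0.0955). SAPK3 differed by -0.88 ± 0.30 and SAPK6 by -0.78 ± 0.31, with overlapping groups. SAPK9, the most abundant kinase gene of the list, differed by -0.46 ± 0.19. SAPK2 (-0.21), SAPK7 (-0.16), SAPK5 (-0.03), SAPK8 (0.01), SAPK4 (0.07) and SAPK1 (0.10) lay nearer to 0. The bZIP factor genes TRAB1 (-0.31 ± 0.29) and BZIP23 (-0.18 ± 0.22) were not called either.

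The 5 genes of ABA synthesis and breakdown had a median difference of -0.90, or -0.59 without WT control replicate 2, and no call. NCED3, whose enzyme makes the first committed step of ABA synthesis, was at 1.27, 0.555 and 1.09 FPKM in RNAi, against 1.41, 4.61 and 2.55 FPKM in WT. ABA8OX2, whose enzyme breaks ABA down, was at 2.31, 2.55 and 2.59 FPKM in RNAi, against 3.50, 50.0 and 13.7 FPKM in WT. The 3 RNAi libraries were nearly equal and the WT libraries differed by more than 10-fold, so the difference of -2.11 ± 0.67 did not pass (adjusted p = 0.0891). The breakdown gene ABA8OX3 differed by -1.31 ± 0.58 and ZEP, of the carotenoid steps before NCED3, by -0.86 ± 0.35. ABA8OX1 differed by -0.07 ± 0.54, with WT replicate 3 and RNAi replicate 1 the 2 highest libraries.

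**Figure D2:**
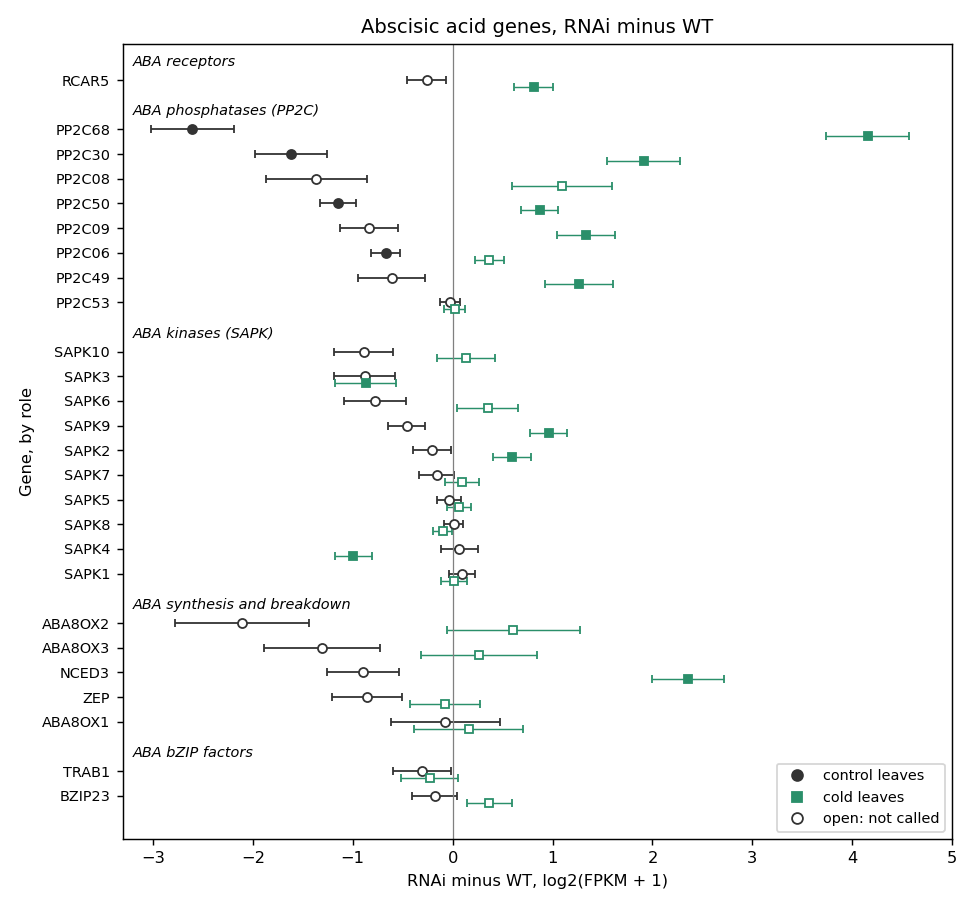
RNAi minus WT on the log2(FPKM + 1) axis for the tested genes of 5 ABA lists, grouped by role, in control leaves (circles) and cold leaves (squares), with bars for 1 standard error and filled symbols for called genes. In control leaves 4 phosphatase genes are called, all lower in RNAi, and in cold leaves 5 phosphatase genes are called, all higher.

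Among genes that respond to ABA and drought, RAB21, a dehydrin gene also known as RAB16A, was at 0.0760, 0.149 and 0 FPKM in RNAi, against 1.91, 6.51 and 3.28 FPKM in WT. The difference was -2.08 ± 0.47 (adjusted p = 0.0336). It was 1 of 6 tested genes of the dehydrin, LEA and LTI6 list, none of which was called higher. The dehydrin gene LIP9 was at 19.6, 16.2 and 17.1 FPKM in RNAi and 30.3, 33.6 and 30.0 FPKM in WT, a difference of -0.80 ± 0.30 that was not called (adjusted p = 0.136).

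P5CS2, for an enzyme that makes proline from glutamate, was at 0.129, 0.150 and 0.269 FPKM in RNAi, against 1.85, 5.99 and 2.50 FPKM in WT, a difference of -1.80 ± 0.31 (adjusted p = 0.00817). Its paralog P5CS1, at 39.4, 51.7 and 47.4 FPKM in RNAi and 37.8, 22.5 and 33.7 FPKM in WT, lay on the other side, with 0.57 ± 0.18 (adjusted p = 0.0929, not called). On the list of proline, trehalose and galactinol genes 1 of 6 was called and the median was 0.08.

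NAC5, a transcription factor gene of the stress-responsive NAC group, was at 14.3, 5.33 and 5.34 FPKM in RNAi, against 18.5, 39.8 and 21.0 FPKM in WT. The difference was -1.61 ± 0.36 (adjusted p = 0.032), the only call among 4 NAC genes. DREB2B, of the DREB2 branch of the AP2/ERF family, was at 16.2, 13.4 and 15.98 FPKM in RNAi, against 22.34, 25.1 and 20.9 FPKM in WT, a difference of -0.56 ± 0.12 (adjusted p = 0.0315). It was called as 1 of 3 DREB2 and ERF genes. EREBP1, an ERF gene of the same list, stood just outside the threshold at 35.4, 29.9 and 32.4 FPKM in RNAi and 48.0, 50.2 and 41.7 FPKM in WT (-0.50 ± 0.13, adjusted p = 0.0507). The CBF/DREB1 genes, which act early in the cold response, gave no call among 7 and a median of 0.

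The largest difference of any named gene was that of YSL2, whose product carries iron and manganese bound to nicotianamine in the phloem. YSL2 was at 0.0650, 0 and 0 FPKM in RNAi control leaves, against 43.3, 28.2 and 9.64 FPKM in WT control leaves, a difference of -4.55 ± 0.48 (adjusted p = 5.72e-05). The transcript was thus at or near 0 in each RNAi library and clearly present, though spread more than 4-fold, in WT. In OX control leaves it was at 15.8, 21.1 and 53.5 FPKM. After cold it was at 0.0562, 0.0841 and 0.0658 FPKM in RNAi leaves, against 5.84, 15.7 and 14.5 FPKM in WT leaves (-3.50 ± 0.48, adjusted p = 0.000156). No other of the 5 tested iron homeostasis genes was called. NAS2, whose enzyme makes nicotianamine, was under 0.5 FPKM in all 6 control libraries, with no overlap between the groups (-0.29 ± 0.15, adjusted p = 0.253).

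CKX4, for an enzyme that breaks down cytokinins, was at 2.3, 1.08 and 1.41 FPKM in RNAi, against 4.46, 9.32 and 5.28 FPKM in WT (-1.47 ± 0.33, adjusted p = 0.0331). CIN1, for a cell wall invertase that splits sucrose, was at 25.8, 12.3 and 12.8 FPKM in RNAi, against 36.7, 54.6 and 33.9 FPKM in WT (-1.30 ± 0.29, adjusted p = 0.0304). Both are the only calls of their lists, of 4 cytokinin oxidase genes and of 14 sucrose and starch genes. SODCC2, for a cytosolic copper/zinc superoxide dismutase, was the most abundant of the 13, at 104, 121 and 92.3 FPKM in RNAi, against 162, 163 and 153 FPKM in WT. Its difference of -0.59 ± 0.14 lay nearest to the threshold (adjusted p = 0.0412) and was no longer called when any 1 of the 6 control libraries was left out. It was the only call among 12 antioxidant genes. CATB, a catalase gene, stood just outside (-0.57 ± 0.15, adjusted p = 0.0572).

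HSP24.1, a small heat shock protein gene, was at 3.75, 5.78 and 6.16 FPKM in RNAi control leaves, against 1.69, 1.25 and 1.92 FPKM in WT control leaves. The difference was 1.24 ± 0.20 (adjusted p = 0.00432) and remained called when any 1 of the 12 RNAi or WT libraries was left out. On the heat shock protein list 1 of 5 was called and the median was 0.02, and none of 12 heat shock factor genes was called.

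In the other lists no named gene was called. ERS1, an ethylene receptor gene, came closest, at 26.8, 24.7 and 25.9 FPKM in RNAi and 36.9, 40.5 and 33.9 FPKM in WT (-0.50 ± 0.13, adjusted p = 0.0528, among 8 ethylene genes). TIP4-1, an aquaporin gene of the vacuolar membrane, was at 265, 178 and 184 FPKM in RNAi and 348, 382 and 272 FPKM in WT (-0.68 ± 0.18, adjusted p = 0.0581, among 14 aquaporin genes). The 12 calcium-dependent and MAP kinase genes had a median of -0.31. The 13 JAZ repressors of jasmonate signalling had a median of -0.05, or -0.32 without WT control replicate 2, and TIFY11C differed by -1.52 ± 0.45 (adjusted p = 0.0739). COI1A, a jasmonate receptor gene, differed by -0.56 ± 0.17 (adjusted p = 0.0767). CHLG, for chlorophyll synthase, was on the higher side at 0.61 ± 0.19 (adjusted p = 0.0837), one of 7 chlorophyll synthesis genes with a median of 0.21.

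Several list medians rested on WT control replicate 2. The 7 circadian clock genes had a median of -0.25, or -0.03 without it. In the clock gene PRR95 the levels were 48.0, 34.7 and 36.3 FPKM in RNAi, against 55.8, 236 and 99.8 FPKM in WT. The 9 cellulose synthase genes had a median of 0.31 with it and -0.56 without it, and the 10 phenylpropanoid and lignin genes 0.50 and -0.17. CAD2, of lignin synthesis, was at 114, 147 and 117 FPKM in RNAi, against 138, 11.2 and 133 FPKM in WT, so that only replicate 2 was low.

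The same contrast was made between 6 cold libraries, whose levels do not enter the difference in control leaves but which share its estimate of the spread. There RNAi differed from WT in 6397 genes (27.6%), 3632 higher (15.7%) and 2765 lower (11.9%). Of the 403 genes called lower in RNAi control leaves, 204 (50.6%) were called higher in RNAi cold leaves and 46 (11.4%) lower. Of the 201 called higher in control leaves, 56 (27.9%) were called higher in the cold and 66 (32.8%) lower. These 204 and 46 genes are 5.62% of the genes higher and 1.66% of the genes lower in the cold, and the 56 and 66 genes are 1.54% and 2.39% of the same 2 lists.

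These shares changed with WT control replicate 2. Without it, 63 of 137 genes called lower in control leaves (46%) were higher in the cold and 38 (27.7%) lower, while 43 of 64 called higher (67.2%) were higher in the cold too and 10 (15.6%) lower. Over all genes tested in that fit, 17% were called higher and 15% lower in the cold. With each pair of groups fitted alone, 25 of 27 genes called higher in control leaves were higher in the cold. Of 23 called lower, 15 were lower there, against 3 that were higher. Over all genes tested, the shares higher and lower in the cold were then 16.5% and 14.7%. The few genes called in this last fit include the unnamed IDs with the largest rises and falls, described below.

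**Figure D3:**
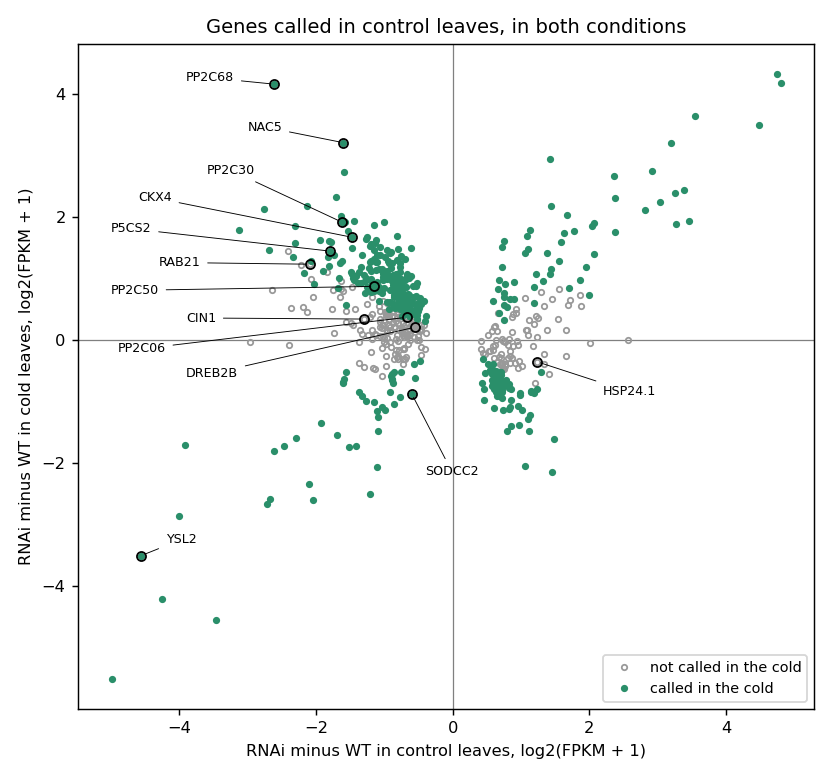
RNAi minus WT in control leaves (horizontal axis) and in cold leaves (vertical axis), both on the log2(FPKM + 1) scale, for the 604 genes called in control leaves, with filled points for genes also called in the cold and names for the 13 named ones. Of the 403 genes called lower in control leaves, 204 are called higher in the cold, among them PP2C68 and NAC5, while YSL2 and SODCC2 are lower in both.

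Of the 12 named genes lower in RNAi control leaves, 6 were called higher than WT in RNAi cold leaves and 2 were called lower, near the 50.6% and 11.4% of all 403 lower genes. PP2C68 was at 23.3, 33.6 and 78.9 FPKM in RNAi cold leaves, against 1.197, 1.61 and 1.08 FPKM in WT cold leaves (4.15 ± 0.41, adjusted p = 1.22e-05). This is the reverse of its order in control leaves, in every library. NAC5 was at 137, 102 and 135 FPKM in RNAi cold leaves, against 10.9, 11.3 and 15.6 FPKM in WT cold leaves (3.21 ± 0.36, adjusted p = 3.53e-05). PP2C30 differed by 1.91 ± 0.36 (adjusted p = 0.00158), CKX4 by 1.67 ± 0.33 (adjusted p = 0.00215), P5CS2 by 1.44 ± 0.31 (adjusted p = 0.00376) and PP2C50 by 0.87 ± 0.18 (adjusted p = 0.00294).

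SODCC2 was lower in both conditions, at 74.6, 105 and 94.9 FPKM in RNAi cold leaves, against 161, 165 and 179 FPKM in WT cold leaves (-0.88 ± 0.14, adjusted p = 0.000546). Its cold groups did not overlap either, as in 48.2% of all genes tested. RAB21 (1.23), PP2C06 (0.37), CIN1 (0.34) and DREB2B (0.21) were not called in the cold, nor was HSP24.1 (-0.35). Of the 8 phosphatase genes 5 were called higher in RNAi cold leaves and none lower, with a median of 1.18. Of all genes tested, 15.7% were called higher and 11.9% lower in the cold, with a median of 0.02. The uncalled NCED3 of control leaves was higher in RNAi cold leaves, at 15.7, 15.4 and 36.3 FPKM, against 2.83, 2.78 and 4.33 FPKM in WT cold leaves (2.35 ± 0.36, adjusted p = 0.000366).

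The difference between the cold and the control contrasts was tested directly as an interaction, which called 7073 of all genes (30.5%), 4203 more positive in the cold (18.1%) and 2870 more negative (12.4%). It uses the control libraries that chose the 604, so its values for them are a description. Of the 403 lower genes 343 were more positive in the cold (85.1%), and of the 201 higher genes 134 were more negative (66.7%). For PP2C68 the interaction was 6.76 ± 0.58 and for HSP24.1 it was -1.59 ± 0.28. It did not pass for YSL2 (1.05 ± 0.67, adjusted p = 0.248) or SODCC2 (-0.29 ± 0.20, adjusted p = 0.296).

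A small group of loci was at or near 0 in one line and clearly present in the other. With limits chosen after the values were seen, 19 loci had at least 2 FPKM in all 3 RNAi control libraries and under 0.5 FPKM in all 3 WT control libraries, and 12 had the opposite pattern. With WT control replicate 2 left out of the limits, but the calls still taken from the fit of all libraries, the counts were 19 and 13. Of the 19, 6 are numbered new genes of the deposited table, 12 were listed at 0 in every WT control library, and the RNAi means ran from 2.26 to 27.8 FPKM. Of the 12, 3 are new genes and 1 is YSL2, and the WT means ran from 2.42 to 32.6 FPKM.

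In the cold libraries, 18 of the 19 and 11 of the 12 again had no overlap between RNAi and WT in either direction, against 48.2% of all genes tested. In 2 of these 11 the order was reversed, with RNAi above WT in the cold, and in the other 9 it was the same as in control leaves. With the same limits, 11 of the 19 and 6 of the 12 kept their pattern there. In OX control leaves, 11 of the 19 loci were under 0.5 FPKM in all 3 libraries, 2 were at 2 FPKM or more in all 3, and 6 lay between. Of the 12 loci high in WT, 5 were low, 3 high and 4 between in OX control leaves. The OX libraries thus matched WT at some of these loci and RNAi at others.

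Among IDs without a name, newGene_7658 had the largest rise, at 29.0, 25.5 and 26.5 FPKM in RNAi control leaves, and was listed at 0 in all WT control libraries. In the cold it was at 17.2, 22.5 and 19.4 FPKM in RNAi, against 0.191, 0.169 and 0.0628 FPKM in WT. Os04g0355401 was at 29.8, 25.2 and 28.3 FPKM in RNAi control leaves, against 0, 0.0756 and 0.129 FPKM in WT control leaves (4.75 ± 0.12, adjusted p = 5.47e-13). Both were called higher in RNAi cold leaves too, and both were under 0.2 FPKM in each OX library of either condition.

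The largest fall was that of newGene_7999, listed at 0 in all RNAi control libraries, against 45.2, 18.59 and 34.1 FPKM in WT control leaves. It was at 0.0435, 0 and 0 FPKM in OX control leaves. Os03g0426350 was at 0.0569, 0 and 0 FPKM in RNAi control leaves, against 22.0, 14.9 and 19.1 FPKM in WT control leaves (-4.26 ± 0.20, adjusted p = 5.88e-09). In OX control leaves it was at 43.8, 43.5 and 50.4 FPKM. These 4 IDs were called under every alternative that was run, the fit of the 6 libraries alone included (limma adjusted p up to 0.00623). They were chosen for their size among called genes, and the alternatives reuse the same libraries, so this is no separate support. The filter of 1 FPKM was passed by newGene_7658 and Os04g0355401 only through RNAi libraries, and by newGene_7999 only through WT libraries.

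**Figure D4:**
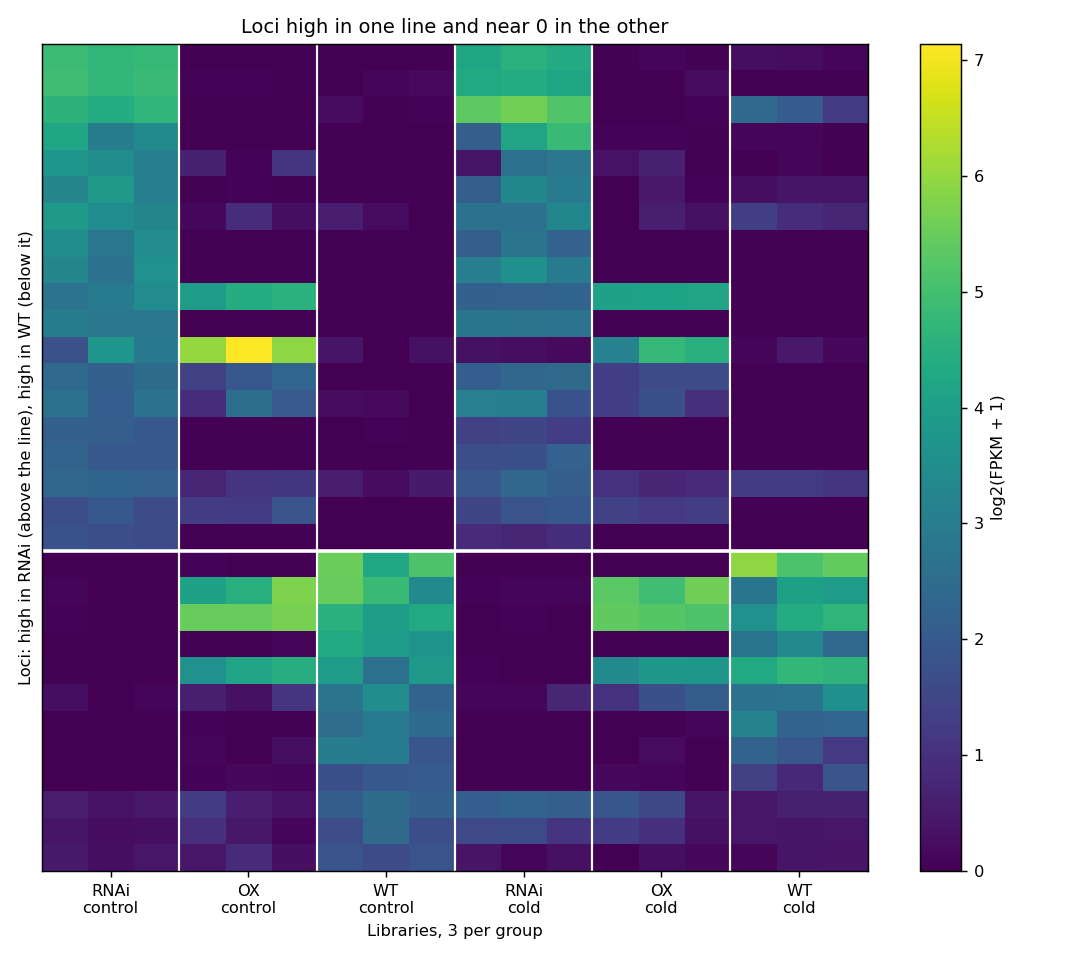
Level of the 31 loci that were high in one line and near 0 in the other under control conditions, as log2(FPKM + 1) by colour, with one row per locus and 3 libraries for each of RNAi, OX and WT in control (left) and cold leaves (right). The 19 loci above the line are high in RNAi control leaves and the 12 below it are high in WT control leaves, and OX is low at 11 of the 19 and at 5 of the 12 in control leaves.

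The called genes were spread over all 12 chromosomes, from 1.98% of the genes tested on chromosome 12 to 4.1% on chromosome 11. Within 20 consecutive tested loci at most 8 were called, and 3 runs stood out. They and their ends were chosen after the values were seen and carry no test. On chromosome 6, 8 of 12 tested loci from Os06g0175900 to Os06g0178400 were called lower in RNAi control leaves, with differences between -1.37 and -1.03. Of these 8, 6 were also called lower in RNAi cold leaves and none higher. The 8 form 4 pairs of loci whose members have similar levels, with median ratios of 0.883 to 1.1 over the 18 libraries, so they may not be 8 independent measurements. Single libraries departed further. The ratio ran from 0.397 to 1.14 for Os06g0175900 to Os06g0177000, and from 1.05 to 1.63 for Os06g0176200 to Os06g0177300. The sources used here do not give how reads were split between similar loci. For example, Os06g0177300 was at 11.4, 9.36 and 9.11 FPKM in RNAi, against 22.32, 23.3 and 24.2 FPKM in WT (-1.15 ± 0.12, adjusted p = 4.59e-05).

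On chromosome 11, 10 of 36 tested loci from Os11g0214400 to Os11g0227300 were called, 7 higher and 3 lower, and 9 of them were called in the same direction in the cold. Among them, Os11g0226400 was at 4.45, 3.53 and 4.69 FPKM in RNAi control leaves and was listed at 0 in all WT libraries of both conditions. In OX control leaves it was at 1.59, 2.93 and 4.04 FPKM. A second run on the same chromosome, from Os11g0513000 to Os11g0521500, had 8 of 15 tested loci called, 1 higher and 7 lower. In the cold 1 of these 8 was called in the same direction and 1 in the opposite direction. Between OX and WT control leaves, 7 of the 10 called loci of the first chromosome 11 run were called too. The same held for 2 of the 8 in the second run and 2 of the 8 on chromosome 6. Over all genes tested, 4% were called between OX and WT. Both contrasts use the same WT control libraries, and the loci were chosen by the contrast of RNAi with WT. These counts are therefore a description.

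**Figure D5:**
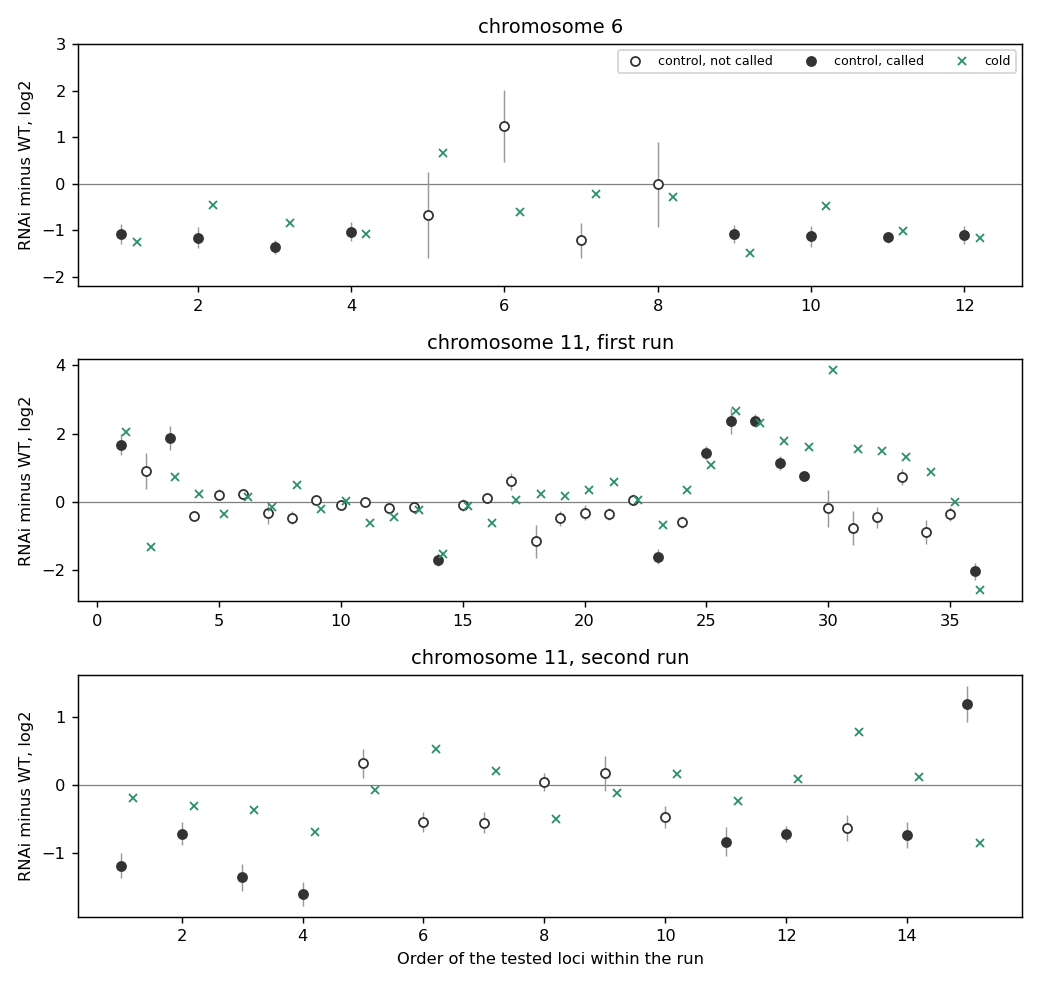
RNAi minus WT on the log2(FPKM + 1) axis for the tested loci of 3 runs, in their order along the chromosome, in control leaves (circles with 1 standard error, filled where called) and cold leaves (crosses). In the chromosome 6 run 8 of 12 loci are called lower, and in the first chromosome 11 run 7 are called higher and 3 lower of 36.

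OX control leaves give a second line beside the RNAi and WT control leaves, with values set side by side because the comparisons share libraries. OX differed from WT in 928 genes (4%) and RNAi from OX in 401 (1.73%), 195 higher (0.841%) and 206 lower (0.889%). Of the 13 named genes, PP2C68 was at 5.19, 1.94 and 4.74 FPKM in OX control leaves, a difference from WT of -1.59 ± 0.41 (adjusted p = 0.0426). PP2C50 differed between OX and WT by -0.80 ± 0.18 (adjusted p = 0.0219), P5CS2 by -1.34 ± 0.31 (adjusted p = 0.0262) and HSP24.1 by 0.77 ± 0.20 (adjusted p = 0.0415). The other 9 were not called between OX and WT. These calls rest on the same WT control libraries as those of RNAi and were not checked without WT control replicate 2. Among the WT control libraries, replicate 2 was the highest for PP2C68, PP2C50 and P5CS2 and the lowest for HSP24.1.

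Set directly against OX, RNAi control leaves were lower in YSL2 by -4.74 (adjusted p = 9.42e-06) and in SODCC2 by -0.79 (adjusted p = 0.00522). SODCC2 was at 171, 166 and 216 FPKM in OX control leaves, above all RNAi control libraries. No other of the 13 was called between RNAi and OX, where PP2C68 differed by -1.02 (adjusted p = 0.271) and PP2C50 by -0.34 (adjusted p = 0.385).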

How the data were processed

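Leaf RNA was extracted with Trizol and sequenced from Illumina TruSeq libraries, per the labels' protocols. The authors deposited FPKM values for 38610 genes in 18 libraries, 35679 locus IDs and 2931 numbered new genes. The submitters' processing notes name Bowtie 0.12.2. The sources used here give no genome build, annotation or counting tool.

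Values were analysed as log2(FPKM + 1) with no further scaling. Genes with at least 1 FPKM in at least 3 libraries were tested (23175, of which 1156 new genes), which left out 15435. In limma 3.58.1 (R 4.3.3), all 18 libraries entered a single fit with 6 group means and a trended prior variance, and this procedure was tested on simulated data. The simulated libraries had the same normal spread for a gene in all groups and none that stood apart. That test therefore does not cover a library like WT control replicate 2.

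IDs in the deposited table come without names. From background knowledge 347 pairs of name and locus ID were written, and 331 were checked by chromosome and gene order in the reference table (assembly ASM3414082v1). Named are all called genes with a checked name, the tested ABA genes, up to 2 members of lists without a call, and the 2 unnamed IDs with the largest rise and the 2 with the largest fall (groups without overlap, at least 5 FPKM in the higher group). Loci that show a run or an uncalled gene of a list with calls were added after their values were seen. The members, lists and tests were chosen with earlier results of these data known. Alternatives were leaving out each WT or RNAi library, another pseudocount, filters, scalings, no variance trend, library weights, fits on fewer libraries, a replicate block and a minimum fold change.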

Additional observations from a re-analysis of the deposited data

Results flagged for a closer look

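In 11 of the 13 named genes called in control leaves, the difference between RNAi and WT itself differed between cold and control leaves, tested as an interaction in limma (log2 scale, cold minus control, all adjusted p under 0.05). The same held for 482 of all 604 genes called in control leaves, so the count is not particular to the named genes. It was 6.76 for PP2C68, 4.82 for NAC5, 3.53 for PP2C30, 3.31 for RAB21, 3.25 for P5CS2, 3.14 for CKX4, 2.01 for PP2C50, 1.64 for CIN1, 1.04 for PP2C06, 0.76 for DREB2B and -1.59 for HSP24.1. The genes were chosen by the control contrast, which enters the interaction, and the values describe them. Groups of 3 libraries are too small for a test of single deviating samples.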

How the results depend on the processing

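The number of genes called in control leaves, 604, depended on single libraries and on which libraries set the spread. Leaving out 1 of the 12 RNAi and WT libraries gave 118 to 1001 called genes, 50 to 337 higher and 68 to 712 lower, with 63 to 97 in the same and 25 to 458 in the opposite direction in the cold and 64 to 862 with an interaction (with all libraries 102, 270 and 482). The opposite-direction count was 25, 51 and 458 without RNAi control replicates 2, 3 and 1, 73 without WT control replicate 2, 144 and 125 without WT cold replicates 1 and 2, and 171 and 161 without RNAi cold replicates 1 and 2. With the compared groups alone there were 50 (27 higher, 23 lower), of which 40 had the same and 3 the opposite direction in the cold. With the 12 WT and RNAi libraries 133 were higher, 158 had the opposite direction and 310 an interaction. Library weights gave 6172 (1983 higher, 4189 lower; 522 same, 2643 opposite, 4545 with an interaction). A fold change of at least 1 on the log2 scale left 259 (82 higher, 177 lower; 100 opposite, 192 with an interaction). The filter at 5 FPKM gave 259 lower and 65 in the same direction. Quantile normalization gave 317 genes called higher and median-ratio scaling 320.

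Same-numbered RNAi and WT control libraries did not deviate together (correlations -0.1, -0.378 and 0.056). Deviations from a mean of 3 libraries are tied to each other, so these values cannot settle whether the numbers pair samples. A replicate block gave 373 called genes, 119 higher and 254 lower, with 166 in the opposite direction in the cold and 282 with an interaction, and without it 604. RNAi replicate 1 deviated most like WT replicate 2 (0.301), RNAi replicate 2 most like WT replicate 3 (0.432) and RNAi replicate 3 most like WT replicate 3 (0.056).

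None of the 13 named calls reversed. Among uncalled ABA genes, signs turned when 1 library was left out in PP2C53 (-0.092 to 0.014), SAPK4 (-0.108 to 0.189), SAPK5 (-0.092 to 0.047), SAPK8 (-0.064 to 0.060) and ABA8OX1 (-0.690 to 0.485). Median-ratio scaling gave 0.051 for PP2C53 and 0.047 for SAPK5, quantile normalization 0.025 for ABA8OX1 and -0.065 for SAPK8, and library weights 0.015 for PP2C53, -0.161 for SAPK4, 0.041 for SAPK5, -0.036 for SAPK8 and 0.112 for TRAB1. The loci that were high in one line and near 0 in the other numbered 11 and 5 with a limit of 5 FPKM, chosen after seeing the data, against 19 and 12 with 2 FPKM. The causes were not tested. Unknown read depth limits statements on genes near 0.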
